A study of Homo sapiens with 6 samples.

Results

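The genes described here are the SR protein genes (SRSF), the heterogeneous nuclear ribonucleoprotein genes (HNRNP), the transformer-2 homologues TRA2A and TRA2B and the polypyrimidine tract-binding protein genes PTBP1, PTBP2 and PTBP3. They were taken from the count table by symbol, with HNRNPA pseudogenes left out, which gave 44 members of 27469 genes: 27 HNRNP, 12 SRSF, 2 TRA2 and 3 PTBP. Their RNA was measured by 3' tag sequencing in HMC3, a human microglial cell line, in 3 libraries of cells given interleukin-33 (IL-33) for 24 h and 3 Control libraries without it. HMC3 is an immortalised line, and both groups are the same line. The labels do not say whether each library had a culture of its own, and the p-values therefore reflect variation among 6 libraries that may be technical. In bulk RNA, fewer cells of a type and less RNA per cell cannot be told apart.

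SR proteins bind exonic sequences through RNA recognition motifs and recruit the spliceosome through domains rich in arginine and serine, which mostly favours inclusion of the exon. hnRNP proteins coat nascent transcripts, and many of them, like PTBP1, repress splice sites nearby. Many of these genes regulate their own and each other's transcripts through alternative exons that bring a premature stop codon and decay, so the amount of counted transcript is the outcome of transcription, splicing and decay together. Counts were summed by gene symbol, with no record of the exons in a transcript.

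The libraries held between 8294747 and 10217529 counts with IL-33 and between 5739947 and 9933395 in Control. Control 3, the library of lowest depth, had a mean correlation of 0.956 with the others across tested genes, against 0.967 to 0.970 for the other 5. Of 12 microglial marker genes, 6 had 0 counts in all libraries (ITGAM, CX3CR1, P2RY12, TMEM119, SPI1 and TYROBP), and the 12 together summed to between 3.89 and 6.84 CPM (counts scaled to library size) with IL-33 and between 3.57 and 8.32 CPM in Control. The 8 mesenchymal markers, led by FN1, VIM and TAGLN and with COL3A1 and ACTA2 at 0, summed to between 7387 and 7754 CPM with IL-33 and between 6975 and 8052 CPM in Control. The 5 epithelial markers, almost all of it KRT18, summed to between 599 and 648 CPM with IL-33 and between 599 and 735 CPM in Control. The defining microglial markers were thus at or near 0 in cells labelled as a microglial line.

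No member passed the test for a difference with IL-33. The low-count filter left 36 members (20 HNRNP, 11 SRSF, 2 TRA2 and 3 PTBP). In edgeR (quasi-likelihood, Benjamini-Hochberg over all genes) 0 of them reached an adjusted p under 0.05, as did 0% of the 12125 genes tested. DESeq2 and limma-voom also called 0 members, while over all genes they called 1 and 0. The smallest adjusted p among the members was 0.999 by edgeR. At an unadjusted p under 0.05 edgeR gave 1 member, TRA2A, against 2.43% of all genes, and DESeq2 and limma-voom gave 0. The libraries of the groups did not overlap in 3 members (TRA2A and SRSF2 higher, HNRNPA1 lower with IL-33), against 8.06% of all genes. The log2 fold change was below 0 in 12 members, against 51.1% of all genes. The 36 members had a median log2 fold change of 0.02 (IL-33 minus Control), against -0.01 over all genes tested. The 95% intervals stayed inside -0.5 to 0.5 on the log2 scale for 27 of the 36 members and inside -1 to 1 for 33. Over all 12125 genes tested, 4829 and 8904 did so. At 50 CPM or more, the narrower bounds held for 27 of 31 members and for 3408 of all 3677 genes at that level. The exceptions to the wider bounds were SRSF1, SRSF9 and HNRNPA1L2.

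Most members were abundant. A 3' tag is read once per transcript end, so counts do not grow with transcript length and the order of the CPM levels that follows is also the order per transcript end counted. Of the 44, 3 had a mean of 500 CPM or more over the 6 libraries (HNRNPK, HNRNPA1 and SRSF11), 14 lay between 200 and 500 CPM, 11 between 100 and 200 CPM and 3 between 50 and 100 CPM. The 5 most abundant members held 36.3% of all member counts and HNRNPK by itself 13.1%. All members together took 0.840%, 0.888% and 0.888% of the counts in the IL-33 libraries and 0.862%, 0.884% and 0.788% in Control 1, 2 and 3. The exact 95% binomial interval of Control 3 ran from 0.781% to 0.795%, below all other libraries. Intervals of this kind cover counting error only.

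**Figure D1:**
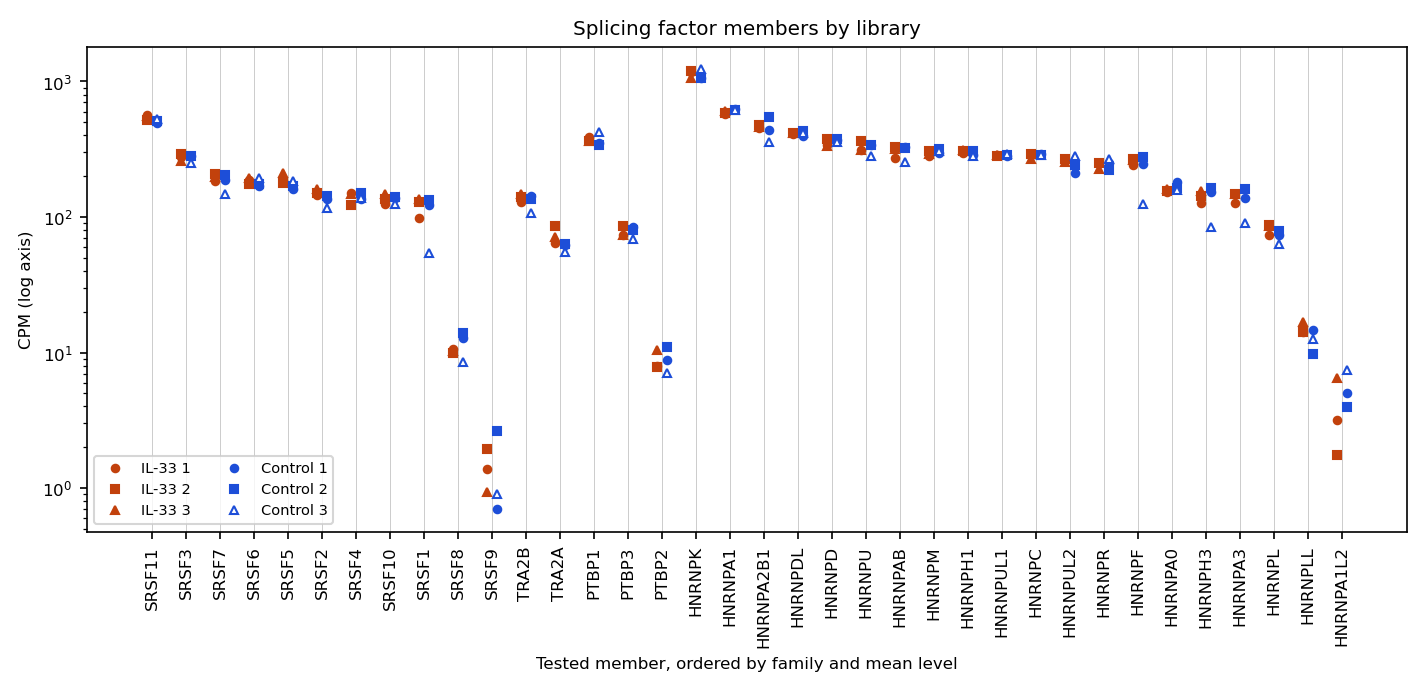
CPM on a log axis for the 36 tested members in each of the 6 libraries (red IL-33, blue Control, open triangles Control 3), ordered by family and mean level. Most members lie between 100 and 500 CPM with the libraries close together, while SRSF1, HNRNPF, HNRNPH3 and HNRNPA3 have Control 3 well below the rest.

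Among the SR protein genes, 9 of 11 tested were above 0 in log2 fold change, against 48.9% of all genes. Their median was 0.05 and 0 were called. Without Control 3, 4 of these 11 were above 0 (SRSF11, SRSF2, SRSF5 and SRSF6) and the median was -0.03. SRSF11, an arginine- and serine-rich factor first known as p54, was the most abundant and measured 562, 516 and 554 CPM with IL-33 and 492, 507 and 529 CPM in Control. IL-33 2 lay within the Control range, so the groups overlapped, and the log2 fold change was 0.09 ± 0.09 (SE). SRSF3, the smallest SR protein, which also takes part in messenger RNA export, measured 276, 291 and 259 CPM with IL-33 and 283, 282 and 251 CPM in Control. Its log2 fold change was 0.02 ± 0.10, with a 95% interval from -0.18 to 0.22.

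SRSF2, a speckle protein that binds exonic enhancers, had the smallest p among the SR genes. It measured 146, 150 and 161 CPM with IL-33 and 135, 143 and 117 CPM in Control. Every IL-33 library lay above every Control library, as in 4.54% of all genes, and the log2 fold change was 0.21 ± 0.11 (edgeR adjusted p = 0.999). Without Control 3 it was 0.13. SRSF2 (chromosome 17, 76734115 to 76737374, minus strand, GRCh38) overlaps MFSD11 on the opposite strand, and how reads in overlaps were assigned is unknown here.

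SRSF5 and SRSF6 belong to the SR proteins with a pair of RNA recognition motifs and lay at almost the same level. SRSF5 measured 186, 179 and 211 CPM with IL-33 and 161, 169 and 185 CPM in Control. IL-33 1 and IL-33 3 lay above all Control libraries and IL-33 2 below Control 3, for a log2 fold change of 0.16 ± 0.10, and 0.09 without IL-33 3. SRSF6 measured 187, 176 and 193 CPM with IL-33 and 170, 174 and 194 CPM in Control, with 0.05 ± 0.10. Within a library the ratio of SRSF5 to SRSF6 counts was 0.991, 1.02 and 1.09 with IL-33 and 0.949, 0.970 and 0.953 in Control, a quantity that needs no scaling between libraries. The IL-33 ratios all lay above the Control ratios, which is given as a description with no test. How often the ratio of any 2 genes separates the groups was not counted. In all other paralogue ratios examined the groups overlapped. These were PTBP2 and PTBP3 to PTBP1, TRA2A to TRA2B, HNRNPH2 to HNRNPH1, HNRNPLL to HNRNPL, HNRNPDL to HNRNPD and SRSF4 to SRSF6. The ratio of SRSF4 to SRSF6, at 0.804, 0.700 and 0.763 with IL-33 and 0.800, 0.868 and 0.715 in Control, showed no such separation.

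SRSF7, whose protein carries a zinc knuckle beside its RNA recognition motif, measured 183, 208 and 197 CPM with IL-33 and 187, 205 and 148 CPM in Control. The groups overlapped, and the log2 fold change of 0.12 ± 0.12 became -0.00053 without Control 3. SRSF4 averaged 141 CPM over the 6 libraries, and SRSF10, a repressor of splicing when dephosphorylated, 135 CPM.

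The low end of the family is less certain. SRSF8, a human retrogene related to SRSF2, lay between 9.96 and 10.7 CPM with IL-33 and between 8.51 and 13.9 CPM in Control. SRSF9, an SR protein with a short arginine- and serine-rich tail, had 13, 20 and 8 counts with IL-33 and 7, 22 and 5 in Control, for a mean of 1.42 CPM. The gene (chromosome 12, 120461668 to 120469793, minus strand, GRCh38) overlaps GATC on the opposite strand, which had 2282 counts. The level of SRSF9 is uncertain, and the part of the overlap in it was not tested. Other tested members also overlap genes on the opposite strand: HNRNPA2B1 (CBX3 and NFE2L3), HNRNPU (COX20), HNRNPH3 (RUFY2 and PBLD), HNRNPUL1 (TGFB1) and HNRNPAB (PHYKPL). These had between 7319 (HNRNPH3) and 24001 (HNRNPA2B1) counts in all, and the same limit holds for them. SRSF12 had 32 counts in all and was not tested.

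TRA2A had the smallest p of all members. TRA2 proteins bind purine-rich exonic enhancers and act together with SR proteins. The gene lies on chromosome 7, 23504780 to 23532041, minus strand (GRCh38). TRA2A measured 64.6, 86.5 and 71.6 CPM with IL-33 and 62.2, 63.5 and 55.2 CPM in Control, so that the groups did not overlap, with IL-33 1 closest to Control 2. The log2 fold change was 0.30 ± 0.14, and the edgeR adjusted p was 0.999. Without IL-33 2, the highest library, it was 0.17. TRA2B measured 129, 139 and 147 CPM with IL-33 and 143, 135 and 107 CPM in Control, with a log2 fold change of 0.11 ± 0.12, and -0.01 without Control 3. The ratio of TRA2A to TRA2B counts was 0.502, 0.621 and 0.487 with IL-33 and 0.435, 0.470 and 0.518 in Control. In that ratio Control 3 lay within the IL-33 range, and the groups overlapped.

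The PTBP genes code for repressors that bind pyrimidine-rich tracts, with PTBP1 in most dividing cells and PTBP2 mainly in neurons. PTBP1 measured 392, 361 and 365 CPM with IL-33 and 351, 341 and 422 CPM in Control, a log2 fold change of 0.01 ± 0.10. PTBP3 measured 74.3, 86.3 and 73.8 CPM with IL-33 and 84.1, 80.3 and 69.1 CPM in Control, with 0.00 ± 0.13. PTBP2 was near the low end, at 7.99, 7.81 and 10.5 CPM with IL-33 and 8.84, 10.9 and 7.06 CPM in Control, with -0.04 ± 0.30. The groups overlapped in all 3 genes. The counts of PTBP2 were 2.04%, 2.17% and 2.88% of those of PTBP1 with IL-33 and 2.52%, 3.21% and 1.67% in Control. The 6 neuronal markers examined, with ELAVL4 at 0, summed to between 5.08 and 5.66 CPM with IL-33 and between 1.27 and 3.25 CPM in Control, mostly SNAP25. Their part in the PTBP2 values was not tested.

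Of the 20 HNRNP genes tested, 11 were above 0 in log2 fold change and 9 below, with a median of 0.02, and the 18 at 50 CPM or more ranged from -0.10 to 0.25. Without Control 3, 6 of these 20 were above 0 (HNRNPH1, HNRNPK, HNRNPL, HNRNPLL, HNRNPR and HNRNPUL2) and the median was -0.05. HNRNPK, a binder of cytosine-rich RNA and DNA, was the most abundant member of all and measured 1177, 1184 and 1065 CPM with IL-33 and 1068, 1068 and 1235 CPM in Control. IL-33 3 was the lowest library and Control 3 the highest, and the log2 fold change was 0.02 ± 0.09.

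HNRNPA1, the classical antagonist of SR proteins at exonic sites, measured 577, 589 and 605 CPM with IL-33 and 627, 611 and 620 CPM in Control. Every IL-33 library lay below every Control library, as in 3.51% of all genes, and the log2 fold change was -0.07 ± 0.09 (edgeR adjusted p = 0.999). Leaving out any library kept it between -0.09 and -0.05. HNRNPA1 has many near-identical pseudogenes, so its counts are uncertain where reads match several copies. Its intronless relative HNRNPA1L2, on chromosome 13, measured 3.20, 1.76 and 6.48 CPM with IL-33 and 5.06, 3.97 and 7.42 CPM in Control, for -0.52 ± 0.48. With 1 library left out it ran from -1.13 without IL-33 3 to -0.17 without IL-33 2.

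HNRNPA2B1, which binds RNA elements that direct transcript transport, measured 451, 479 and 462 CPM with IL-33 and 441, 546 and 356 CPM in Control. The Control libraries bracketed all IL-33 values, and the log2 fold change of 0.05 ± 0.12 was -0.09 without Control 3. HNRNPA0, a binder of AU-rich elements in messenger RNA, measured 153, 156 and 162 CPM with IL-33 and 182, 163 and 159 CPM in Control, with -0.10 ± 0.10, and -0.03 without Control 1. IL-33 3 lay above Control 3, so the groups overlapped.

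HNRNPD, also known as AUF1 for its binding to AU-rich elements, and its paralogue HNRNPDL lie close together on chromosome 4 and had similar levels. HNRNPD measured 342, 374 and 336 CPM with IL-33 and 371, 379 and 355 CPM in Control, with a log2 fold change of -0.07 ± 0.09. HNRNPDL measured 408, 417 and 420 CPM with IL-33 and 398, 432 and 416 CPM in Control, with -0.00 ± 0.09 and a 95% interval from -0.19 to 0.19. The ratio of HNRNPDL to HNRNPD counts was 1.19, 1.12 and 1.25 with IL-33 and 1.07, 1.14 and 1.17 in Control.

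HNRNPL, which binds CA-rich RNA, measured 73.6, 86.9 and 85.1 CPM with IL-33 and 73.6, 78.9 and 62.8 CPM in Control, with 0.19 ± 0.13, and 0.10 without Control 3. IL-33 2 and IL-33 3 lay above the Control range and IL-33 1 within it. Its paralogue HNRNPLL, known in T cells for splicing of the phosphatase gene PTPRC, averaged 13.6 CPM over the 6 libraries, and the ratio of HNRNPLL to HNRNPL counts was 0.192, 0.163 and 0.197 with IL-33 and 0.198, 0.123 and 0.199 in Control.

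A further 8 tested HNRNP genes (HNRNPU, HNRNPAB, HNRNPM, HNRNPH1, HNRNPUL1, HNRNPC, HNRNPUL2 and HNRNPR) all averaged between 244 and 325 CPM over the 6 libraries. HNRNPUL1 measured 286, 284 and 285 CPM with IL-33 and 283, 289 and 290 CPM in Control, and HNRNPC, which binds uridine tracts, had -0.04 ± 0.09. HNRNPH2 had 45 counts in all and was not tested, while its paralogue HNRNPH1, which binds G-rich runs, had 15607.

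The other members were at or near 0. The intronless HNRNPC-like genes HNRNPCL1 and HNRNPCL2 had 1 and 12 counts in all, and HNRNPCL3 and HNRNPCL4 had 0, as had the pseudogene HNRNPKP3 and the readthrough gene HNRNPUL2-BSCL2. The limit that a count of 0 allows, taken as 3 counts over the total counts without TMM scaling, was 0.523 CPM in Control 3 and 0.294 CPM in IL-33 2.

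**Figure D2:**
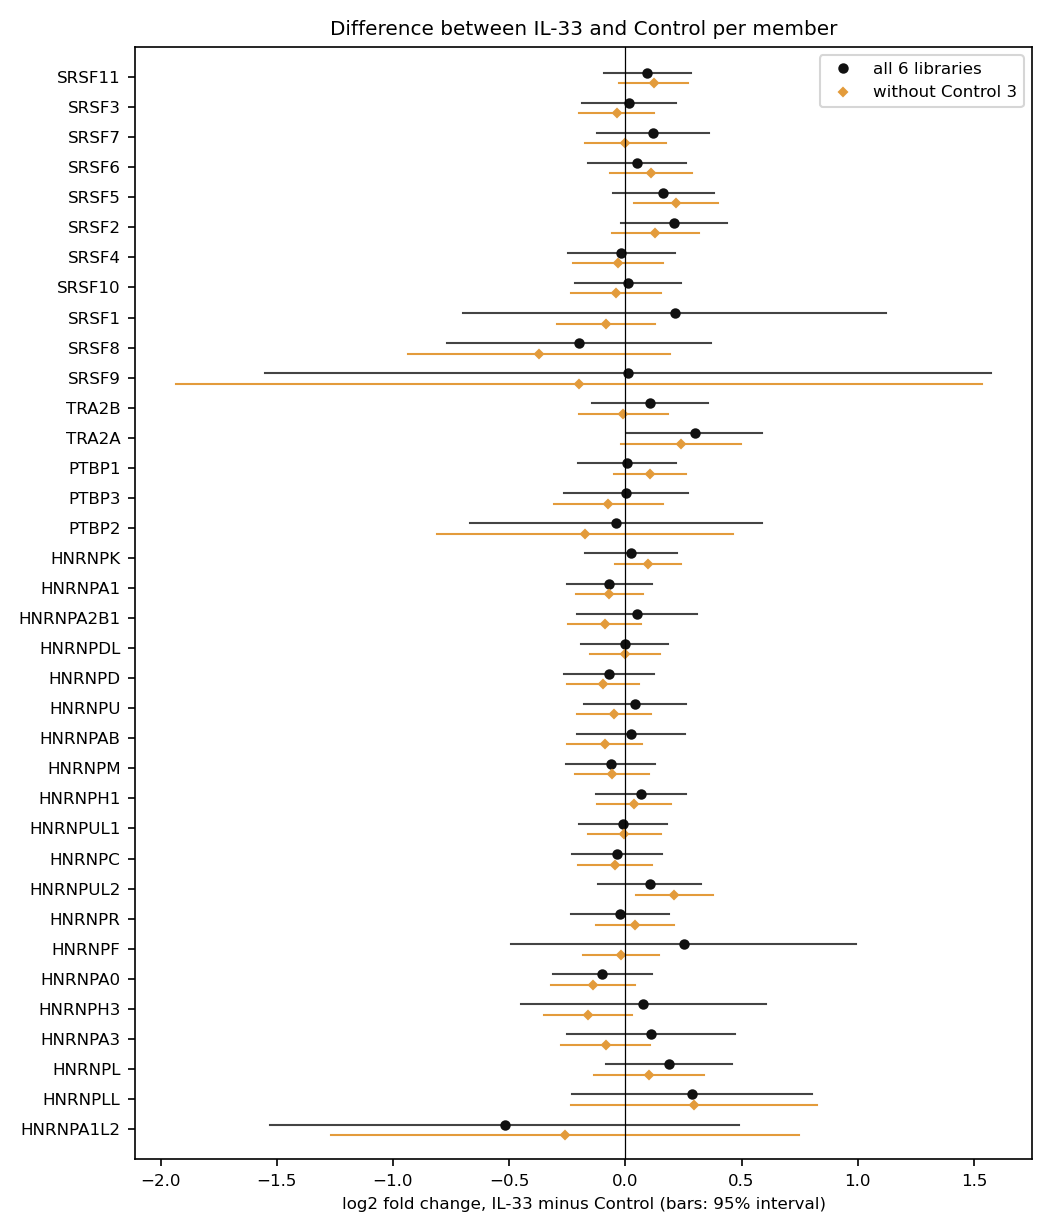
log2 fold change, IL-33 minus Control, with its 95% interval for each tested member, over all 6 libraries (black) and without Control 3 (orange). All black intervals cross 0 except that of TRA2A, whose lower bound is 0.01, and the interval of SRSF1 narrows from 1.12 at its upper end to 0.13 without Control 3.

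The Control libraries varied more than the IL-33 libraries in 22 of the 31 members at 50 CPM or more, against 69.5% of all genes at that level. In 15 of the 31, Control 3 was the lowest of the 6 libraries, against 23.8% of all 3677 genes at that level, and it was the highest in 6 of 31, against 40.1% of those genes. Relative to Controls 1 and 2, the median of the 36 members in Control 3 was -0.14 on the log2 scale. The median of all tested genes was 0.00, and that of all genes at 50 CPM or more was 0.07. The coefficient of variation between libraries of the 31 members had a median of 5.85% in the IL-33 group and 8.60% in the Control group. Over all genes at that level the medians were 6.90% and 10.4%. Between Controls 1 and 2 alone they were 3.81% for the members and 4.93% over those genes. Values from 2 libraries are not directly comparable with values from 3. These shares and medians are a description, with no test. The nuclear RNA MALAT1 measured 131, 129 and 165 CPM with IL-33 and 104, 94.5 and 60.8 CPM in Control. NEAT1, the RNA of paraspeckles, measured 290, 249 and 466 CPM with IL-33 and 157, 168 and 131 CPM in Control. In both, every IL-33 library lay above every Control library, with or without Control 3, as in 4.54% of all genes over all 6 libraries. No test of these RNAs is given. Control 3 was the lowest library in both, and the part of RNA quality, depth or this library in the members' values was not tested.

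The genes farthest down in Control 3 were SRSF1, HNRNPF, HNRNPH3 and HNRNPA3, which were picked out after their values were seen. In Control 3, 6 of the 36 tested members (16.7%) lay more than 0.5 below Controls 1 and 2 on the log2 scale. The low-count SRSF8 and SRSF9 were among these 6. The others were SRSF1, HNRNPF, HNRNPH3 and HNRNPA3, out of 31 members at 50 CPM or more. The share was 18.8% over all tested genes and 6.17% over those at 50 CPM or more. SRSF1, the founding SR protein and a regulator of constitutive and alternative splicing, measured 98.7, 128 and 135 CPM with IL-33 and 122, 134 and 54.5 CPM in Control. HNRNPF, a binder of G-rich runs, measured 243, 266 and 263 CPM with IL-33 and 245, 276 and 125 CPM in Control. Both were lowest in Control 3, with IL-33 1 the next lowest.

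HNRNPH3, of the same family as HNRNPF, measured 126, 142 and 155 CPM with IL-33 and 153, 163 and 84.0 CPM in Control. HNRNPA3, a paralogue of HNRNPA2B1, measured 128, 148 and 147 CPM with IL-33 and 138, 161 and 90.8 CPM in Control. On the log2 scale Control 3 lay at -1.23, -1.05, -0.91 and -0.71 from the mean of Controls 1 and 2 in SRSF1, HNRNPF, HNRNPH3 and HNRNPA3. With all libraries their log2 fold changes were 0.21 ± 0.36, 0.25 ± 0.29, 0.08 ± 0.23 and 0.11 ± 0.17, and without Control 3 they were -0.08, -0.02, -0.16 and -0.08. At the other end, the low-count HNRNPA1L2 lay above Controls 1 and 2 in Control 3 by 0.70. Among members at 50 CPM or more, HNRNPUL2, PTBP1 and HNRNPK did so by 0.31, 0.29 and 0.21.

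The sign of many small differences depended on Control 3. With all libraries, 24 of the 36 were above 0, against 48.9% of all genes. Without Control 3, 12 of 37 were, against 50% of all genes (6306 of 12611), and 14 of the 36 members tested in both changed sign. The median of the members was -0.04 without it. Leaving it out called 6 genes in all (0.0476% of 12611 tested), 0 of them members. HNRNPUL2 and SRSF5 had an unadjusted p under 0.05, against 6.30% of all genes, with log2 fold changes of 0.21 and 0.22 and edgeR adjusted p of 0.682 and 0.688. HNRNPUL2 measured 269, 268 and 255 CPM with IL-33 and 213, 244 and 281 CPM in Control. Its log2 fold change was 0.10 ± 0.11 with all libraries and 0.01 without Control 1. That of SRSF5 was 0.16 ± 0.10 with all libraries and 0.09 without IL-33 3.

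**Figure D3:**
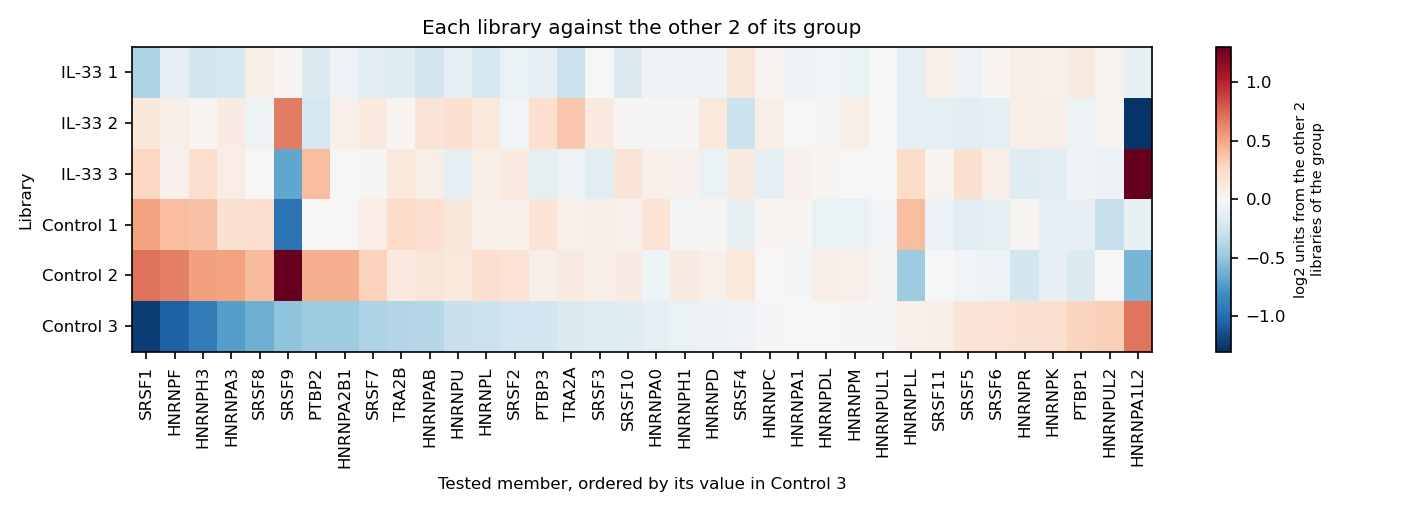
Each tested member in each library as the distance in log2 CPM from the mean of the other 2 libraries of its group (red above, blue below), ordered by the value in Control 3. The dark blue end of the Control 3 row holds SRSF1 at -1.23 and HNRNPF at -1.05, and the IL-33 rows hold no value beyond 0.5 in either direction except those of the low-count SRSF9 and HNRNPA1L2.

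The promoters of these 4 genes are given because these members lay farthest below the other Controls in Control 3. They are RefSeq windows on GRCh38.p14, 300 bases long and 5' to 3' on the gene's own strand, from 250 bases before to 50 bases after an annotated start, and for HNRNPF and HNRNPH3 the first start listed was used. Capitals mark the letters TGACG (the start of a cyclic AMP response element), GGGCGG (Sp1 box), CCAAT and CCGGAAG (ETS core), on either strand.
SRSF1, chr17:58007197-58007496, minus strand: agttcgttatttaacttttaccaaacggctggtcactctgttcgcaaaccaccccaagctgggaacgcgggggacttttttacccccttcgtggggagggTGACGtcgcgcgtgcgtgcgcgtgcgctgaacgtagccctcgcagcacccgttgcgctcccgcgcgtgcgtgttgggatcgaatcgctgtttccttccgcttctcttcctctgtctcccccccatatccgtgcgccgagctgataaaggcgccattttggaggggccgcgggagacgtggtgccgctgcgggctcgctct
HNRNPF, chr10:43408808-43409107, minus strand: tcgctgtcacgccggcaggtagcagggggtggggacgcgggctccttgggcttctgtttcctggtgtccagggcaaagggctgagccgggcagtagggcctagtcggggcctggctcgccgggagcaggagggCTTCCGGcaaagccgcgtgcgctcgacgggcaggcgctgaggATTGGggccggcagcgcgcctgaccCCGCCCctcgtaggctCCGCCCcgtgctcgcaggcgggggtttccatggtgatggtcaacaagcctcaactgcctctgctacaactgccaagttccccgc
HNRNPH3, chr10:68331443-68331742, plus strand: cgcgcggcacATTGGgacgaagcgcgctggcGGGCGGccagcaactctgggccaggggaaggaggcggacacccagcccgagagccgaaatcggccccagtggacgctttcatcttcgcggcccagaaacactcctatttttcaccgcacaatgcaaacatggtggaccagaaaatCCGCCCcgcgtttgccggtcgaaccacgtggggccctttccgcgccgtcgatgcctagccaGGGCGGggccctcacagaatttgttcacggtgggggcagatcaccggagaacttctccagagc
HNRNPA3, chr2:177212544-177212843, plus strand: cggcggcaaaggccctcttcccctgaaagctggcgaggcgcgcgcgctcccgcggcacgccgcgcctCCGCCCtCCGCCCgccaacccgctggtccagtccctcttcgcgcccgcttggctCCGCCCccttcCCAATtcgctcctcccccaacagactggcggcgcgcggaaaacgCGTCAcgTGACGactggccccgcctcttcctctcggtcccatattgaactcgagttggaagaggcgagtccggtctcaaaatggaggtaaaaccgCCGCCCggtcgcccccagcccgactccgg
SRSF1 held 1 TGACG and none of the other motifs. HNRNPF, HNRNPH3 and HNRNPA3 each held GGGCGG and CCAAT, and HNRNPA3 also held TGACG and HNRNPF CCGGAAG. The 4 windows thus had no motif of these in common. Windows at other starts of HNRNPF and HNRNPH3 differed in their motifs. The last listed for HNRNPH3 held TGACG but neither GGGCGG nor CCAAT.

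Across the 39 members with a RefSeq window (54 windows, SRSF2, TRA2A, HNRNPA1, HNRNPCL3 and HNRNPKP3 without one), GGGCGG was found in 63.0% and in 45.0% of all 35116 promoter windows. TGACG was found in 40.7% of the members' windows and in 24.6% of all, CCAAT in 48.1% and 34.6%, CCGGAAG in 11.1% and 10.3%, and TATAAA in 11.1% and 11.5%. An NF-kB-like pattern (GGGA and TTCC with 2 bases between) was in 0 of the 54 windows and in 1.61% of all. An interferon response pattern (GAAA repeated with 2 bases between) was in 3.70% and 3.57%. Both strands were searched for each. The members' windows had a median GC content of 64.8%, against 58.7% for all windows, and no test was made of these shares. A match describes letters in a window and says nothing of binding.

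**Figure D4:**
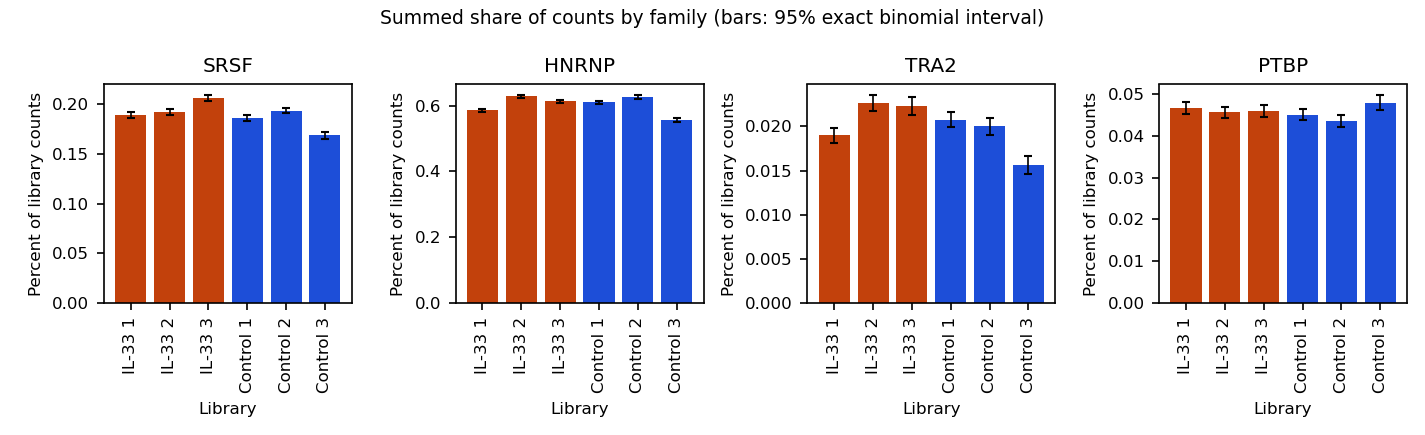
Share of each library's counts taken by the SRSF, HNRNP, TRA2 and PTBP members, with IL-33 libraries in red, Control libraries in blue and bars for the exact 95% binomial interval. Control 3 is lowest for SRSF (0.169%), HNRNP (0.556%) and TRA2 (0.0156%) and highest for PTBP (0.0480%).

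The rest of the splicing machinery was read from 8 lists, and 0 genes in any of them passed the test. At an unadjusted p under 0.05 edgeR also gave 0 of them, against 2.43% of all genes. Over all genes tested, 48.9% were above 0 in log2 fold change, with a median of -0.01. The counts above 0 and the medians of the lists were not redone without Control 3. SR proteins are phosphorylated by the SRPK and CLK kinases and carried into the nucleus by TNPO3. Of 13 tested genes of SR phosphorylation and import, 7 were above 0 in log2 fold change (median 0.02), and TNPO3 (0.21 ± 0.14) and CLK3 (-0.19 ± 0.15) had the smallest p. TNPO3 measured 165, 187 and 181 CPM with IL-33 and 165, 181 and 114 CPM in Control, again with Control 3 lowest. Without Control 3, the log2 fold change was 0.04 for TNPO3 and -0.10 for CLK3. Of 17 SR-related and speckle proteins, 9 were above 0, with a median of 0.01, led by SCAF4 (0.26 ± 0.20) and SRRM2 (0.10 ± 0.10), a scaffold of nuclear speckles. SRRM2 was at 0.02 without Control 2 and 0.18 without Control 3.

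The U1 list, which recognises the 5' splice site, had 4 of 9 above 0 and a median of -0.00, with LUC7L3 at 0.15 ± 0.09 and the U1 protein gene SNRPC at -0.09 ± 0.09. The U2 and branch point list had 9 of 17 above 0 and a median of 0.03, with SF3A2 at -0.27 ± 0.15 and SNRPB2 at -0.16 ± 0.10. Without Control 3, SF3A2 was at -0.08, and SNRPC in the U1 list at -0.04. LUC7L3 was at 0.09 without IL-33 3. Of the Sm proteins, the shared core of the spliceosomal particles, 5 of 7 were above 0, with a median of 0.07. SNRPB (-0.10 ± 0.09) was lower and SNRPD2 (0.09 ± 0.09) higher in every IL-33 library than in every Control library, though neither passed the test, and SNRPB was at -0.04 without Control 3 and SNRPD2 at 0.06 without IL-33 3. Over the 8 lists, 7 tested genes lay higher in every IL-33 library (SNRPD2, SCAF4, CLK2, UPF3B, CELF1, SFPQ and NOVA2), which is 5.69% of those tested, against 4.54% of all genes. SNRPB was the 1 gene lower in every IL-33 library, 0.813% against 3.51% of all genes.

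The tri-snRNP list had the lowest median, at -0.06 with 3 of 14 above 0. There SNRNP40 had 0.37 ± 0.22 and SART1 -0.21 ± 0.14. SNRNP40 was at 0.19 without Control 3, and SART1 at -0.11 without IL-33 2. Other splicing regulators had 18 of 31 above 0 and a median of 0.01, with the paraspeckle protein gene PSPC1 at -0.31 ± 0.21 and EWSR1 at 0.24 ± 0.17. EWSR1 was at 0.03 without Control 3, and PSPC1 ran from -0.55 without IL-33 2 to -0.14 without IL-33 3. The exon junction and nonsense-mediated decay list had 9 of 15 above 0 and a median of 0.05, with UPF3A at 0.47 ± 0.23 and UPF2 at -0.26 ± 0.14. UPF3A measured 37.8, 27.9 and 28.1 CPM with IL-33 and 20.8, 31.5 and 14.8 CPM in Control, where Control 2 lay within the IL-33 range. UPF3A was at 0.26 without Control 3 and 0.80 without Control 2, and UPF2 at -0.14 without Control 2.

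**Figure D5:**
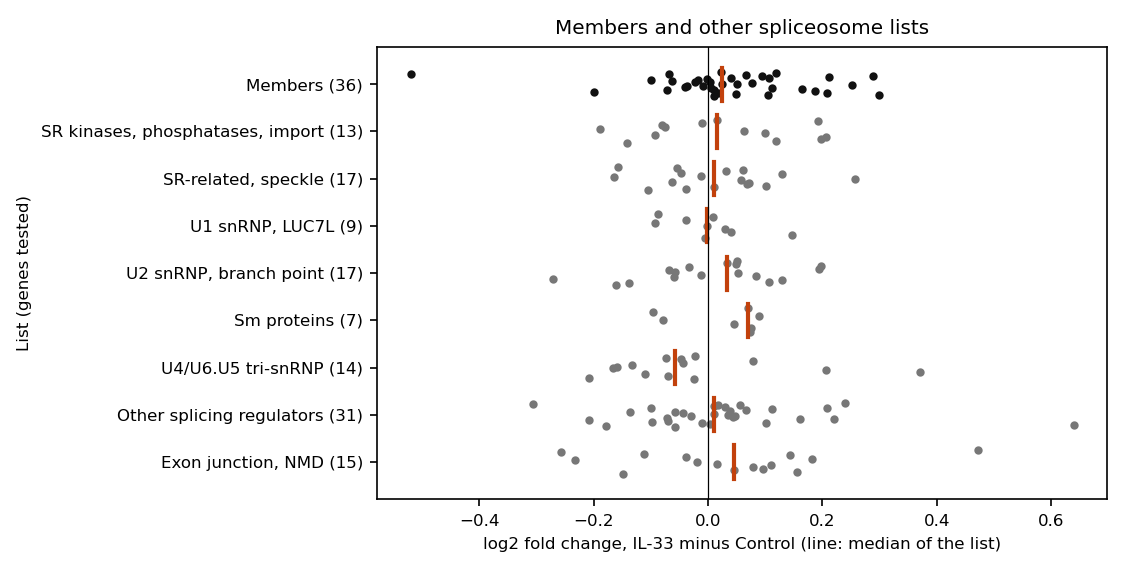
log2 fold change, IL-33 minus Control, of each tested gene in the members and in 8 other lists of the splicing machinery, with the median of each list as a line. The medians lie between -0.06 (tri-snRNP) and 0.07 (Sm proteins), with 0.02 for the members.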

How the data were processed

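TRIZOL extraction and the QuantSeq 3' FWD kit of Lexogen are stated per the labels' protocols. The deposited file holds raw read counts by gene symbol, as whole numbers. Per the submitters' processing notes, STAR 2.7.5a, HTSeq 0.6.1, edgeR and hg38 were involved, in roles they do not state. No source used here gives the annotation, strand setting or filters. Of 27470 rows, 1 held no values. The test was edgeR 4.0.16 (R 4.3.3): filterByExpr (count minimum 10, total minimum 15) left 12125 genes, TMM scaling, a robust quasi-likelihood fit on group alone, and a threshold of 0.05 after Benjamini-Hochberg adjustment. CPM used TMM-scaled library sizes, except in the limit for a count of 0, and log CPM a prior count of 2. DESeq2 1.42.0, limma-voom (limma 3.58.1), other scalings and filters, the replicate block and each library left out were alternatives. The procedure was tested on simulated counts. All 44 members had a position in GENCODE 29 (GRCh38) by symbol.

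Values per library were given for the 4 members with the smallest p in each direction, the 5 most abundant HNRNP and 4 most abundant SRSF genes, and the TRA2 and PTBP genes. Up to 2 genes per list were given by log2 fold change and SE, and of these only TNPO3 and UPF3A by library. Members and lists were chosen with earlier results of these data known, and other genes after their values were seen. Library pairs within a group differed beyond sampling noise, and all were kept apart. Chi-square over its degrees of freedom was 14.8 and 15.8 in the pairs with Control 3 and 5.56 to 7.46 in the others.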

Additional observations from a re-analysis of the deposited data

How the results depend on the processing

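The count of 0 changed members was the same under all alternatives run, including each library left out. The count of 0 changed genes became 3 without the low-count filter and 1 with DESeq2, and ran from 0 to 6 with a library left out, the 6 without Control 3. The replicate block called 0 genes and 0 members, with a members' median of 0.04. The labels do not say that the numbers pair the libraries, and same-numbered deviations correlated at -0.086, 0.027 and -0.136. With all scalings, filters and tools, 2 of 40 named genes changed sign, both next to 0. PTBP3 was -0.00129 with DESeq2's size factors, -0.00166 with DESeq2 and -0.00750 with limma-voom, and HNRNPDL was 0.00972 with library size alone, 0.000328 without the filter and 0.00416 at 10 CPM or more.

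With a library left out, 13 of the 40 changed sign. The log2 fold changes ran from -0.085 to 0.43 for SRSF1, -0.018 to 0.47 for HNRNPF, -0.16 to 0.25 for HNRNPH3, -0.084 to 0.29 for HNRNPA3, -0.089 to 0.22 for HNRNPA2B1, -0.037 to 0.060 for SRSF3, -0.00053 to 0.22 for SRSF7, -0.0084 to 0.19 for TRA2B, -0.050 to 0.11 for PTBP1, -0.19 to 0.13 for PTBP2, -0.075 to 0.063 for PTBP3, -0.012 to 0.096 for HNRNPK and -0.032 to 0.028 for HNRNPDL. The lowest value of SRSF1, HNRNPF, HNRNPH3, HNRNPA3, HNRNPA2B1, SRSF3, SRSF7 and TRA2B came without Control 3. The members' median ran from -0.04 to 0.07. Of the tested members, SRSF9, HNRNPA1L2 and PTBP2 had the fewest counts, at 75, 228 and 463 in all.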

Other observations

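Several genes of the splicing machinery were at or near 0 in this table. U2AF1, the subunit that reads the 3' splice site, and SNRPN had 0 counts in all 6 libraries, and LUC7L2 had 26 in all. Among the members, HNRNPH2 had 45 counts and SRSF9 75. HNRNPH2 is overlapped on the same strand by the readthrough gene RPL36A-HNRNPH2, which was listed at 0, while RPL36A had 5528 counts. BSCL2 and the readthrough HNRNPUL2-BSCL2 were also listed at 0, while HNRNPUL2 had 13156. These are values of the deposited table, and the part of read assignment in them was not tested.

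The pseudogenes left out of the set, HNRNPA1P10, HNRNPA1P33 and HNRNPA3P1, had 23, 0 and 7 counts in all, against 31398 for HNRNPA1 and 7193 for HNRNPA3.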
